A study of Mus musculus with 12 samples.

Results

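Expression of OX40 ligand (Tnfsf4), GITR ligand (Tnfsf18), Fas ligand (Fasl) and their receptors OX40 (Tnfrsf4), GITR (Tnfrsf18) and Fas was measured in the aorta of 3 inbred mouse strains. These 6 genes were taken by their symbol in the array platform's annotation, and they were 6 of 22180 genes measured by a probe cluster that carries 1 gene symbol. Each of the 6 had 1 such cluster, and none was lost to a filter.

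The arrays held aortic arch from DBA/2J (DBA arch), C57BL/6 (B6 arch) and 129S6/SvEvTac mice (129 arch), and aortic root from 129S6/SvEvTac mice (129 root). There were 3 arrays in each of the 4 groups, 12 in all. All mice were wild-type males aged 2 to 5 months on regular chow, so no group carried a mutation, and no fat-rich diet was given. Each array was hybridised with RNA pooled from 5 mice, except B6 arch replicate 1, a pool of 4 mice, and the root arrays, each a pool of 6. A pool hides the spread between its animals, and no label ties an arch pool to a root pool. The root group rests on the titles and tissue labels of its samples, as their free-text description names the arch, and the study's methods give an age of 3 to 5 months.

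The 3 ligands are membrane proteins of the tumour necrosis factor (TNF) superfamily and engage receptors on neighbouring cells. OX40 ligand and GITR ligand, made chiefly by antigen-presenting cells and activated endothelium, costimulate T cells through OX40 and GITR, which recruit TRAF adaptors and activate NF-kappaB. Fas ligand, made by cytotoxic lymphocytes, triggers apoptosis through the death domain of Fas, a receptor carried by many tissue cells including vascular smooth muscle. Tnfsf4 has also been studied in mice as a gene of atherosclerosis susceptibility.

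None of the 6 genes differed between groups past the test in any of 4 comparisons. The arches of the strains were set against each other, and 129 root was set against 129 arch. The test was limma's moderated test on the log2 values, with p-values adjusted over 22180 genes by the Benjamini-Hochberg method at 0.05. By that rule 0 of 6 passed for DBA arch against 129 arch, where 1.44% of all genes did, and 0 of 6 for B6 arch against 129 arch, where 1.45% did. Likewise 0 of 6 passed for DBA arch against B6 arch (1.55% of all genes) and 0 of 6 for 129 root against 129 arch (15.8% of all genes). At an unadjusted p under 0.05, 0, 0, 0 and 1 of the 6 were counted in these comparisons, against 12%, 12.1%, 12.5% and 29.3% of all genes. The comparisons with 129 arch share its 3 arrays, so they are not independent of each other.

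**Figure D1:**
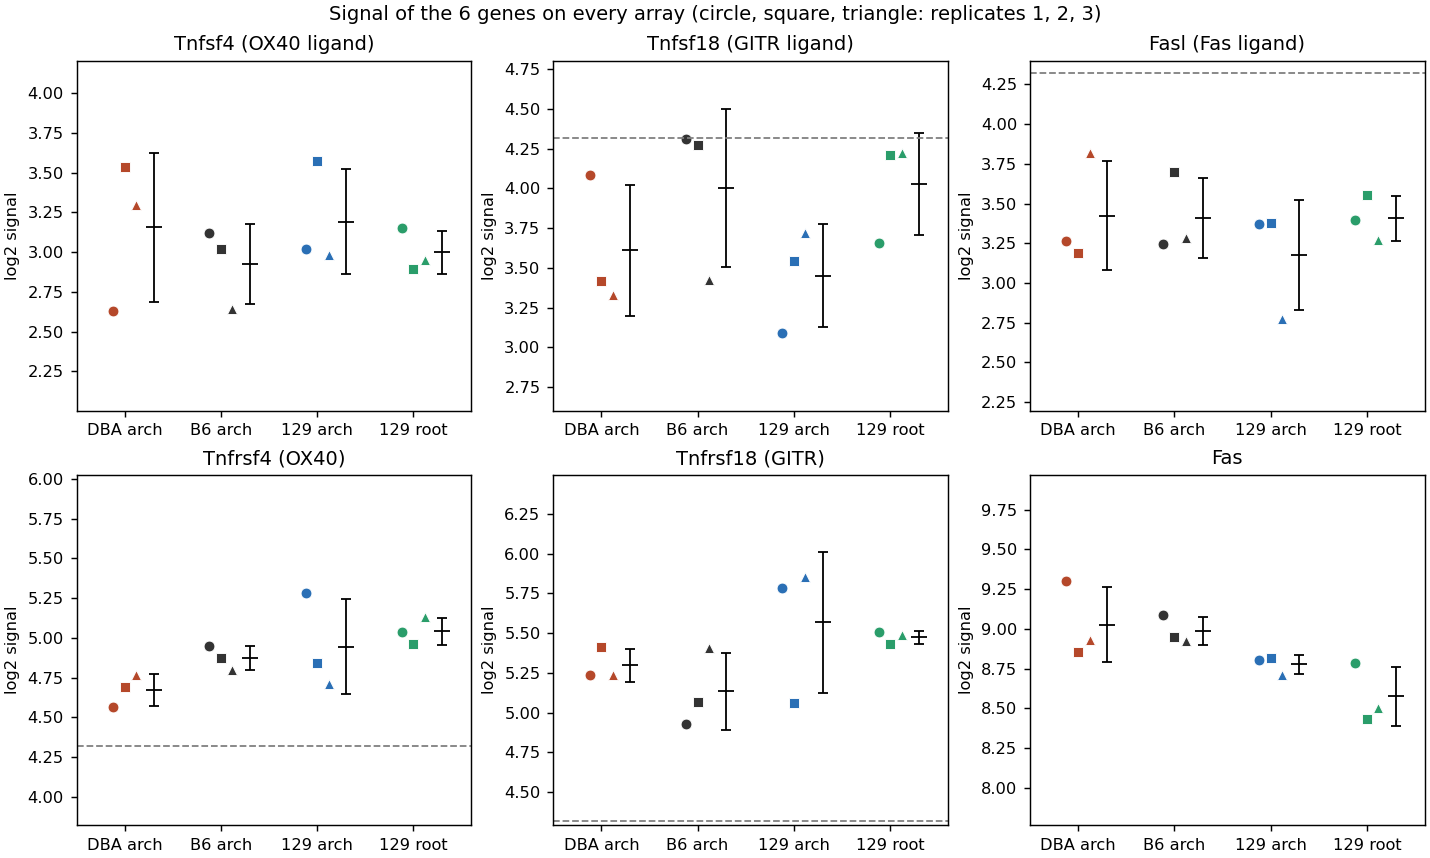
Log2 signal of the 6 genes (vertical axes, each spanning 2.2 log2 units) on the 12 arrays by group, with circles, squares and triangles for replicates 1, 2 and 3, and the mean ± SD of 3 arrays in black. The dashed line, where it lies within an axis, is the 95th percentile of 1390 chemosensory receptor genes (4.32); the 3 ligands lie below or near it on all arrays, Tnfrsf4 and Tnfrsf18 above it, and Fas far above it.

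The signal of the ligands was low. As a guide to the signal of genes not expected in the aorta, 1390 odorant and vomeronasal receptor genes on the same arrays had a median of 2.71 and a 95th percentile of 4.32 on the log2 scale. Fasl and Tnfsf4 were below that percentile, taken array by array, on all 12 arrays, while Tnfsf18 exceeded it on 1. Tnfrsf4, Tnfrsf18 and Fas exceeded it on all 12. Probe clusters differ in how brightly they report a given amount of RNA, so this sets no gene above another, and a ligand inside that range may be expressed at a level these arrays could not separate from background.

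Tnfsf4 had a log2 signal of 2.63, 3.54 and 3.30 on the DBA arch arrays, 3.12, 3.02 and 2.64 on the B6 arch arrays, 3.02, 3.57 and 2.98 on the 129 arch arrays, and 3.15, 2.90 and 2.95 on the 129 root arrays. The lowest and the second highest of the 12 values both came from DBA arch, and all groups overlapped. The group means ran from 3.19 ± 0.33 in 129 arch (SD, n = 3) through 3.16 ± 0.47 in DBA arch and 3.0 ± 0.14 in 129 root to 2.93 ± 0.25 in B6 arch, and no neighbours in that order differed by more than their spread. The difference between DBA arch and 129 arch was -0.04 ± 0.26 (SE, adjusted p = 0.981), and its 95% interval reached from 0.652-fold to 1.46-fold. For B6 arch against 129 arch the difference was -0.27 ± 0.26 (adjusted p = 0.770), and for 129 root against 129 arch it was -0.19 ± 0.17 (adjusted p = 0.521). DBA arch stood 0.23 ± 0.26 above B6 arch (adjusted p = 0.803). The 95% interval of that last difference ran from 0.784-fold to 1.75-fold.

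Tnfsf18, whose product engages GITR, was the ligand that varied most. Its log2 signal was 4.08, 3.42 and 3.33 in DBA arch, 4.31, 4.27 and 3.43 in B6 arch, 3.09, 3.54 and 3.72 in 129 arch and 3.66, 4.21 and 4.22 in 129 root. A pair of root arrays lay above every 129 arch array, and the remaining root array lay between the 129 arch values. The root mean of 4.03 ± 0.32 exceeded the arch mean of 3.45 ± 0.32 by 0.58 ± 0.21, or 1.49-fold with a 95% interval of 1.05 to 2.12, but the adjusted p was 0.125 (unadjusted p = 0.0309 in limma's fit). B6 arch, at 4.00 ± 0.50, stood 0.55 ± 0.29 above 129 arch (adjusted p = 0.530), with 1 of its 3 arrays within the 129 range. DBA arch stood 0.16 ± 0.29 above 129 arch (adjusted p = 0.902) and differed from B6 arch by -0.39 ± 0.29 (adjusted p = 0.672). Over the alternative processings the adjusted p of the root difference ran from 0.0220 to 0.30. The lowest came from a fit with the replicate number as a block, although no label ties root pools to arch pools by number.

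The 300 bases around the annotated start of Tnfsf18, and those of Fas below, are shown because these were the ligand and the receptor with the largest spread of group means against their replicate spread. They were taken from RefSeq's annotation of GRCm38.p6, which covered 5 of the 6 genes, with 250 bases before the start and 50 after it, and capitals mark CG dinucleotides. The Tnfsf18 window is chr1:161494407-161494706 on the plus strand.
Tnfsf18 promoter: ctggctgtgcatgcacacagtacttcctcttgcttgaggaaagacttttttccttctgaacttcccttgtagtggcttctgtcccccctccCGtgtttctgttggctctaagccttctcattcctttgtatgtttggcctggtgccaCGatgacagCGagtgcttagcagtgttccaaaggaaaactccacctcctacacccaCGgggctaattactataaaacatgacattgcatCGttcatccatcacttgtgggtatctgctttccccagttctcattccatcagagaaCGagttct
This window held 6 CG dinucleotides, more than 43.6% of 32851 such windows, whose median was 7. The word TATAAA began 34 bases before the annotated start. Of the 5 windows it was in this one only, on either strand, and of all windows 13.6% held it.

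Fasl had a log2 signal of 3.26, 3.19 and 3.82 in DBA arch, 3.24, 3.70 and 3.28 in B6 arch, 3.37, 3.38 and 2.77 in 129 arch and 3.40, 3.55 and 3.27 in 129 root. All groups overlapped, and the lowest value came from 129 arch replicate 3. The means of DBA arch (3.42 ± 0.34), B6 arch (3.41 ± 0.25) and 129 root (3.41 ± 0.14) were within 0.02 of each other, and that of 129 arch was 3.17 ± 0.35. The differences from 129 arch were 0.25 ± 0.23 for DBA arch (adjusted p = 0.759), 0.23 ± 0.23 for B6 arch (adjusted p = 0.773) and 0.23 ± 0.18 for the root (adjusted p = 0.447). Between DBA arch and B6 arch the difference was 0.02 ± 0.23 (adjusted p = 0.990), and it had no settled direction, as it turned to -0.00737 after quantile normalization and -0.018 after each array was centred on its median.

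Tnfrsf4, which encodes OX40, was measured with less spread. Its log2 signal was 4.56, 4.69 and 4.76 in DBA arch, 4.95, 4.87 and 4.80 in B6 arch, 5.28, 4.84 and 4.71 in 129 arch and 5.04, 4.96 and 5.13 in 129 root. Every DBA arch array lay below every B6 arch array, and a pair of DBA arch arrays also lay below every 129 arch array, while 129 arch overlapped both groups. The DBA arch mean was 4.67 ± 0.10 and the B6 arch mean 4.87 ± 0.07, a difference of -0.20 ± 0.15 (adjusted p = 0.674) with a 95% interval of 0.685-fold to 1.10-fold. Of the 6 genes, 1 did not overlap between DBA arch and B6 arch, where 17.1% of all genes did not. Against 129 arch (4.95 ± 0.30), DBA arch differed by -0.27 ± 0.15 (adjusted p = 0.547), B6 arch by -0.07 ± 0.15 (adjusted p = 0.912) and the root (5.04 ± 0.09) by 0.10 ± 0.16 (adjusted p = 0.734). The root difference took the other sign, -0.016, when each array was centred on its median.

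Tnfrsf18, which encodes GITR, had a log2 signal of 5.24, 5.42 and 5.24 in DBA arch, 4.93, 5.06 and 5.40 in B6 arch, 5.79, 5.06 and 5.86 in 129 arch and 5.51, 5.43 and 5.49 in 129 root. The highest pair of values came from 129 arch, whose remaining array was among the lowest, so that 129 arch overlapped every other group. The means were 5.57 ± 0.44 in 129 arch, 5.48 ± 0.04 in 129 root, 5.30 ± 0.10 in DBA arch and 5.13 ± 0.24 in B6 arch. Although every root array exceeded every B6 arch array, strain and segment of the aorta cannot be told apart between those groups. The largest tested difference was -0.43 ± 0.22 between B6 arch and 129 arch (adjusted p = 0.496), or 0.740-fold with a 95% interval of 0.527 to 1.04. DBA arch differed from 129 arch by -0.27 ± 0.22 (adjusted p = 0.715) and from B6 arch by 0.16 ± 0.22 (adjusted p = 0.841), and the root from 129 arch by -0.09 ± 0.21 (adjusted p = 0.815).

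A further cluster on the array carries the symbols of both Tnfrsf18 and Gm16008, so its signal cannot be assigned to either, and it stood outside the rule for choosing the 6 genes. It was examined after the data were seen, in a fit of all 41345 clusters. Its log2 signal was 5.77, 6.06 and 6.17 in DBA arch, 6.97, 6.03 and 6.29 in B6 arch, 5.64, 5.88 and 5.47 in 129 arch and 6.48, 6.44 and 6.34 in 129 root. Every root array was above every 129 arch array, unlike in the cluster of Tnfrsf18 alone. The root exceeded 129 arch by 0.76 ± 0.13 (limma, adjusted p = 0.0224 over 41345 clusters). Leaving out 129 arch replicate 2 kept this call (adjusted p = 0.0213), and leaving out any of the other 5 arrays ended it, with an adjusted p of up to 0.0877. B6 arch stood 0.77 ± 0.24 above 129 arch (adjusted p = 0.273) and DBA arch 0.34 ± 0.24 above it (adjusted p = 0.731).

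Fas, the receptor of Fas ligand, gave a signal far above the 95th percentile of the chemosensory genes, of which 1 was higher. Its log2 signal was 9.30, 8.86 and 8.93 in DBA arch, 9.08, 8.95 and 8.92 in B6 arch, 8.80, 8.82 and 8.71 in 129 arch and 8.78, 8.43 and 8.50 in 129 root. Every DBA arch array and every B6 arch array lay above every 129 arch array, while the highest root array lay within the 129 arch values. The means ran in the order DBA arch (9.03 ± 0.24), B6 arch (8.98 ± 0.09), 129 arch (8.78 ± 0.06) and 129 root (8.57 ± 0.18), a span of 0.45 with a pooled SD within groups of 0.16.

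DBA arch exceeded 129 arch in Fas by 0.25 ± 0.13, or 1.19-fold with a 95% interval of 0.967 to 1.46 (adjusted p = 0.520). B6 arch exceeded it by 0.21 ± 0.13, or 1.16-fold with an interval of 0.939 to 1.42 (adjusted p = 0.621). DBA arch and B6 arch overlapped and differed by 0.04 ± 0.13 (adjusted p = 0.947), a direction that turned to -0.094 without DBA arch replicate 1. The root differed from 129 arch by -0.20 ± 0.11, or 0.869-fold with an interval of 0.721 to 1.05 (adjusted p = 0.30). Of the 6 genes, Fas was the 1 that did not overlap between DBA arch and 129 arch, where 20.9% of all genes did not, and also the 1 between B6 arch and 129 arch, where 17.5% did not. None of the 6 was without overlap between root and arch, where 35.8% of all genes were.

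The Fas window, chr19:34290409-34290708 on the plus strand of GRCm38.p6, is shown with CG in capitals as above.
Fas promoter: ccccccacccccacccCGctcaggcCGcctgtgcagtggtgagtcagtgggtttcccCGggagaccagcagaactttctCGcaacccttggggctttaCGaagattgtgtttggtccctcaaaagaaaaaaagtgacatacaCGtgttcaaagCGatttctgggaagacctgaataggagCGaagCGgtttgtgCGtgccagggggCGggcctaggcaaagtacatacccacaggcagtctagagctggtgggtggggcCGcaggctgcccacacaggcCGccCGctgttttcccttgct
It held 14 CG dinucleotides, more than 63.7% of all windows, and 59% of its bases were G or C. The windows of Fasl, Tnfrsf4 and Tnfrsf18 held 7, 6 and 4.

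**Figure D2:**
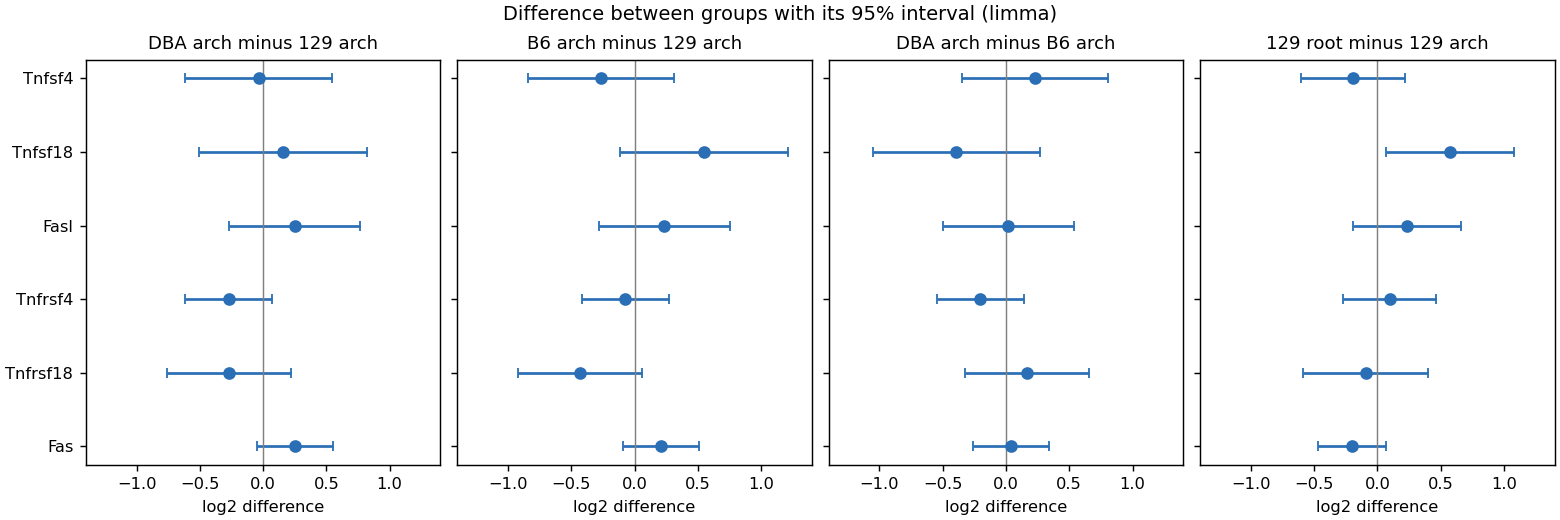
Log2 difference between groups (horizontal axes) for each of the 6 genes in the 4 comparisons, with points for limma's estimate and bars for its 95% interval. The interval of Tnfsf18 between root and arch lies above 0 (0.07 to 1.08) and the other 23 include 0; no adjusted p is under 0.05.

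Markers of immune and heart cells differed between root and arch past the test. In bulk tissue fewer cells of a type and less RNA per cell cannot be told apart. The summed signal of 11 measured T cell markers was 1415 to 2775 in 129 arch, 532 to 978 in DBA arch, 446 to 1592 in B6 arch and 369 to 427 in 129 root, with no marker at 0. Of these 11, 9 were lower in root than in arch past the test. In limma's fit 0 of 11 passed in DBA arch and in B6 arch against 129 arch, where 9 and 8 were lower at an unadjusted p under 0.05. Of 4 thymocyte markers 3 were lower in root, with a summed signal of 44.3 to 50.5 against 146 to 302 in 129 arch, 70.2 to 114 in DBA arch and 67.0 to 251 in B6 arch, and of 5 B cell markers 4 were lower in root. Among 5 markers of activated and regulatory T cells, which carry OX40 and GITR, Foxp3 was lower in root (-0.79 ± 0.14, adjusted p = 0.0104) and Il2ra higher (0.72 ± 0.18, adjusted p = 0.0400), both named after their values were seen. Tnfrsf4 and Tnfrsf18 were at root levels of 5.04 and 5.48 against arch levels of 4.95 and 5.57, while the mean log2 signal of the T cell markers was 4.74 to 4.84 in root and 6.41 to 7.34 in 129 arch. The part of cell content in the signal of the 6 genes was not tested.

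**Figure D3:**
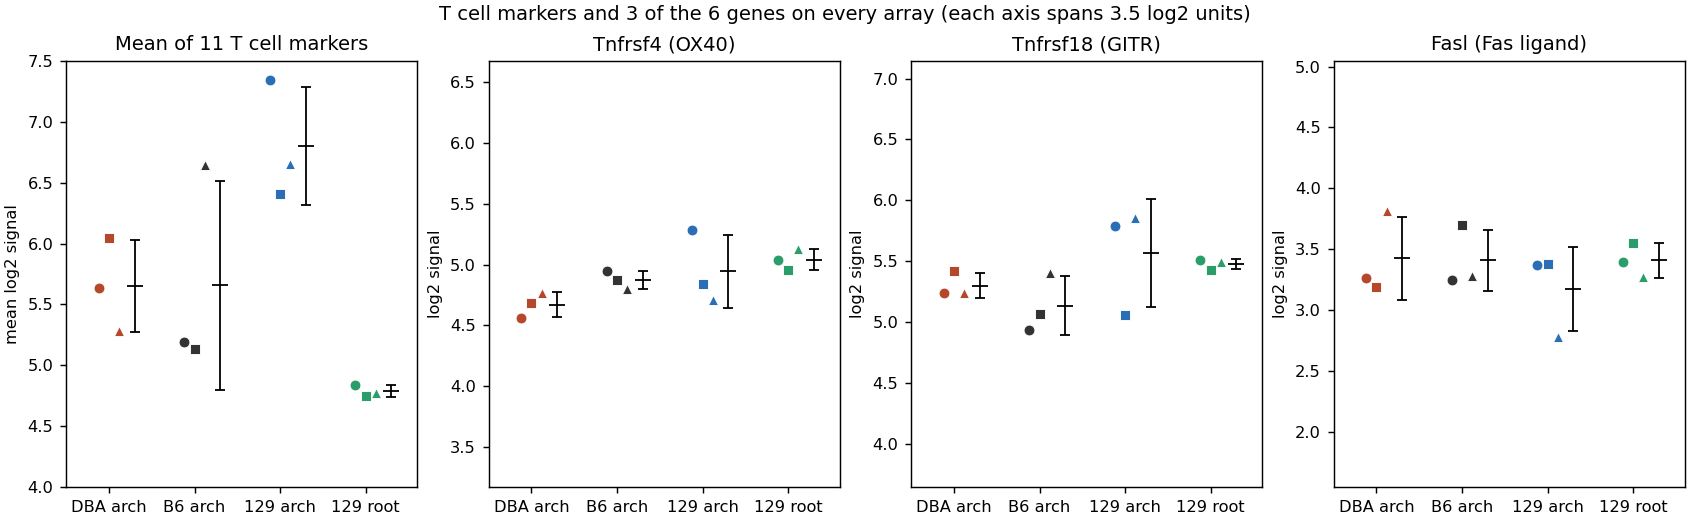
Mean log2 signal of 11 T cell markers (left) and log2 signal of Tnfrsf4, Tnfrsf18 and Fasl on the 12 arrays by group, every vertical axis spanning 3.5 log2 units; symbols mark replicates 1, 2 and 3, and black bars the mean ± SD of 3 arrays. The T cell markers separate root (4.74 to 4.84) from 129 arch (6.41 to 7.34), and the 3 genes overlap between these groups.

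Other markers moved as well. Of 9 macrophage and dendritic cell markers 5 were higher in root, as were 6 of 7 cardiomyocyte markers and 3 of 5 fibroblast markers. Of 7 endothelial markers 2 were higher in root and 1 lower. The smooth muscle markers had a mean log2 signal of 12.2 to 12.4 on all arrays, near the highest deposited value of 13.6. In limma's fits 0 of 6 passed in any comparison, 0 also at an unadjusted p under 0.05. Among the arch arrays, DBA arch replicate 2 and B6 arch replicate 1 held the most signal from the liver, lung and cartilage list. The summed signal of the cardiomyocyte list reached 29202 on DBA arch replicate 2, and that of the liver, lung and cartilage list reached 5562 on the same array and 7690 on B6 arch replicate 1, against up to 2136 and 265 for these lists in 129 arch. Genes of other organs were not confined to these arrays. Scgb1a1 was 7.38 on B6 arch replicate 3 and 6.35 on 129 arch replicate 2. Alb was 6.75 on DBA arch replicate 3 and 6.61 on 129 arch replicate 1. Dntt of the thymocyte list was 7.39, 6.15 and 6.95 in 129 arch and 7.22 on B6 arch replicate 3, against 3.06 to 3.67 in root. With both DBA arch replicate 2 and B6 arch replicate 1 left out, 0 of the 6 genes passed in the arch comparisons, as with them.

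Other members of the TNF ligand family, from a list of 15 of which 13 were measured, include 2 that passed between arches. Tnfsf15, the ligand of the death receptor Tnfrsf25, was higher in DBA arch (5.64) than in 129 arch (4.30), by 1.34 ± 0.26 (adjusted p = 0.0472). It was also higher there than in B6 arch (4.21), by 1.44 ± 0.26 (adjusted p = 0.0362). The means of 129 arch and B6 arch lay just below the chemosensory 95th percentile of 4.32. Lta, which encodes lymphotoxin alpha, was higher in DBA arch than in B6 arch by 0.78 ± 0.13 (adjusted p = 0.0238). These were the only ligands past the test, 1 of 13 between DBA arch and 129 arch, 2 of 13 between DBA arch and B6 arch, and 0 of 13 between B6 arch and 129 arch. At an unadjusted p under 0.05 in limma's fit they were 3, 5 and 2 of 13. Of all genes 1.44%, 1.55% and 1.45% passed in these comparisons, and 12%, 12.5% and 12.1% at the unadjusted level. The median differences of the 13 were 0.20, 0.40 and -0.06, against 0.00, 0.02 and -0.02 over all genes.

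The ligand calls between arches rested on few arrays. Of 9 fits that each left out 1 arch array, Tnfsf15 passed in 2 against 129 arch, namely without DBA arch replicate 1 and without B6 arch replicate 1, and the adjusted p otherwise reached 0.173. It passed in 2 of 9 against B6 arch, without DBA arch replicate 1 and without 129 arch replicate 2, and otherwise reached 0.105. Without both DBA arch replicate 2 and B6 arch replicate 1 its adjusted p was 0.113 in each comparison. Lta passed in 3 of 9, without B6 arch replicate 1, 129 arch replicate 2 or 129 arch replicate 3, and otherwise reached 0.0902. By the methods' Tukey-Kramer test with Benjamini-Hochberg adjustment neither gene passed, with adjusted p of 0.378 and 0.293 for Tnfsf15 and 0.146 for Lta. No alternative turned the sign of these differences.

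Between root and arch 3 of the 13 ligands were higher and 1 lower, where 15.8% of all genes passed. Their median difference was 0.09, against 0.00 over all genes. Eda, the ectodysplasin ligand, was higher in root by 0.50 ± 0.09 (adjusted p = 0.0117) and passed in all 6 fits that left out 1 array. Tnfsf15 (0.74 ± 0.19, adjusted p = 0.0400) and Tnfsf11, the osteoclast factor RANKL (0.52 ± 0.13, adjusted p = 0.0341), were also higher, and Ltb, which encodes lymphotoxin beta of lymphocytes, was lower (-0.80 ± 0.21, adjusted p = 0.0454). These 3 passed in 1 of 6 such fits each, namely without 129 arch replicate 2, 129 arch replicate 3 and 129 root replicate 1, and the adjusted p otherwise reached 0.128, 0.107 and 0.139. Ltb fell together with the T cell markers given above, and the part of cell content in this was not tested.

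The other 25 receptors of the family were all measured. Between arches 1 of them passed: Tnfrsf10b, a death receptor for TRAIL, was lower in B6 arch (8.03) than in 129 arch (8.72), by -0.69 ± 0.12 (adjusted p = 0.0302). It passed in 2 of 9 fits that left out 1 arch array, without DBA arch replicate 2 or 3, and otherwise reached 0.116, and it did not pass by the adjusted Tukey-Kramer test (adjusted p = 0.161). The counts were 0 of 25 for DBA arch against 129 arch and 1 of 25 for B6 arch against 129 arch. For DBA arch against B6 arch the count was 0 of 25. At an unadjusted p under 0.05 in limma's fit they were 2, 7 and 3. Of all genes 1.44%, 1.45% and 1.55% passed, and 12%, 12.1% and 12.5% at the unadjusted level. The median differences of the 25 receptors were 0.04, -0.04 and 0.05.

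Between root and arch 6 of the 25 receptors were higher and 1 lower, where 15.8% of all genes passed. Their median difference was 0.18, against 0.00 over all genes. Tnfrsf19, an orphan receptor of embryonic and epithelial tissue, was higher in root by 1.73 ± 0.12 (3.32-fold, adjusted p = 0.000233). Eda2r, a receptor of ectodysplasin, was higher by 1.38 ± 0.16 (2.60-fold, adjusted p = 0.00161), and Ngfr, the low-affinity neurotrophin receptor of nerve and Schwann cells, by 0.87 ± 0.14 (1.82-fold, adjusted p = 0.00622). Cd27, a costimulatory receptor of T cells, was lower by -2.19 ± 0.29 (0.219-fold, adjusted p = 0.00278), as were the T cell markers. These 4 passed in all 6 fits that left out 1 array.

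Of the remaining receptors called, Tnfrsf11b, the RANKL decoy osteoprotegerin (0.75 ± 0.13, adjusted p = 0.00892), passed in all 6 such fits but not with all 12 arrays in one fit (adjusted p = 0.0821). Tnfrsf1b passed in 2 (without 129 arch replicate 2 or 3, otherwise up to an adjusted p of 0.06) and Tnfrsf21 in 0 (up to 0.148). By contrast Tnfrsf4 and Tnfrsf18, which like Cd27 are carried by T cells, had root differences of 0.10 and -0.09, and the difference between genes was not tested. The Cd27 means were 3.83 in root, below the chemosensory 95th percentile of 4.32, and 6.02 in arch.

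**Figure D4:**
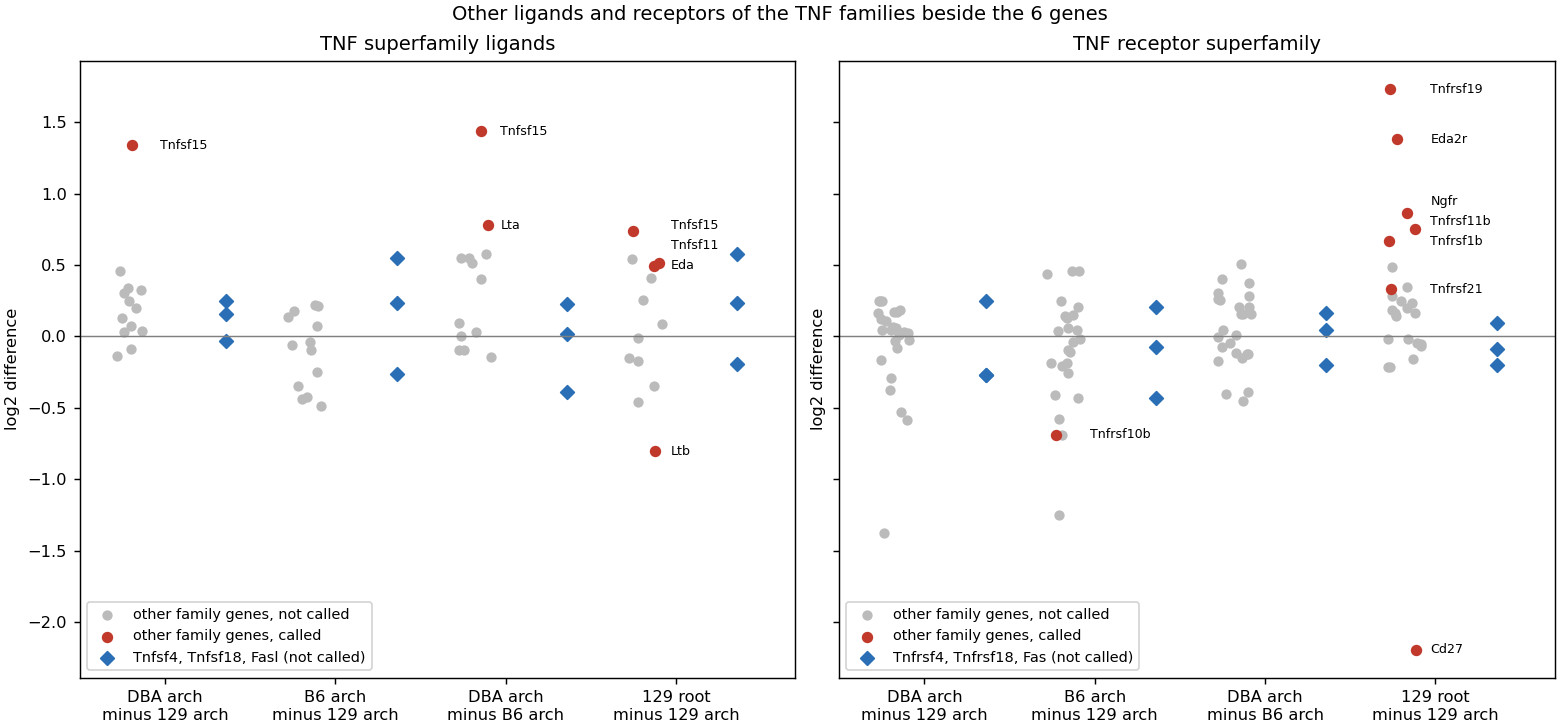
Log2 difference (vertical axis) in the 4 comparisons for 13 other ligands (left) and 25 other receptors (right) of the TNF families, in grey or, where the adjusted p was under 0.05, in red with the name, beside the 6 genes as blue diamonds. Red points are most numerous between root and arch, 4 ligands and 7 receptors, and no diamond was called.

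Downstream of the receptors few genes passed. Of all genes, 1.44% passed for DBA arch against 129 arch, 1.45% for B6 arch against 129 arch and 1.55% for DBA arch against B6 arch. Between root and arch 15.8% did. At an unadjusted p under 0.05 in limma's fit these shares were 12%, 12.1%, 12.5% and 29.3%. Of 16 measured genes of the Fas death pathway, 1 was higher in DBA arch than in 129 arch, namely Bid, which links caspase activation to mitochondria (0.64 ± 0.13, adjusted p = 0.0479). This call passed in 1 of 9 fits that left out 1 array, without B6 arch replicate 1, and otherwise reached an adjusted p of 0.180. It did not pass by the adjusted Tukey-Kramer test (adjusted p = 0.202). The call was also lost after quantile normalization, after each array was centred on its median and with limma's trended robust prior. None of the 16 passed in the other arch comparisons in limma's fit, and 0 and 2 did at an unadjusted p under 0.05. Between root and arch 1 of 16 was lower, namely Cycs, the cytochrome c of the respiratory chain (-0.99 ± 0.17, adjusted p = 0.00816), which passed in all 6 fits that left out 1 array but not with all 12 arrays in one fit (adjusted p = 0.162). Of 20 measured TRAF and NF-kappaB genes 0 passed between arches in limma's fit (4, 0 and 5 at an unadjusted p under 0.05), and 1 was higher in root, namely Map3k14, the kinase of the non-canonical pathway (0.62 ± 0.10, adjusted p = 0.00804, in all 6 fits).

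Over all genes 52.9% of root calls were higher in root, and 34.2% after each array was centred on its median, which moved the median difference of all genes from 0.00 to -0.11. None of the root directions given above for called ligands, receptors and downstream genes turned with that scaling, but Tnfsf11, Tnfsf15 and Tnfrsf21 no longer passed. Nor did Tnfsf11, Tnfsf15 and Tnfrsf21 pass between root and arch with all 12 arrays in one fit.

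The genes lie at 3 loci. In RefSeq's gene order for GRCm38.p6, used for order only, Tnfsf18 and Fasl lie with Tnfsf4 on chromosome 1 with no other measured gene between them, Tnfrsf4 and Tnfrsf18 are neighbours on chromosome 4, and Fas is on chromosome 19. Of the 20 nearest measured genes around each locus, 10 on each side, 1 at the chromosome 1 locus passed between arches: Fmo4, a flavin monooxygenase, was lower in DBA arch than in 129 arch by -1.36 ± 0.21 (adjusted p = 0.0160). Leaving out any of the 3 129 arch arrays ended that call, with an adjusted p of up to 0.0801, as did the adjusted Tukey-Kramer test (adjusted p = 0.192). At the chromosome 4 and chromosome 19 loci 0 of 20 passed in limma's fit for DBA arch against 129 arch, B6 arch against 129 arch or DBA arch against B6 arch, and at an unadjusted p under 0.05 there were 3, 1 and 4 at the former and 3, 4 and 4 at the latter. At the chromosome 1 locus there were 5, 3 and 4 of 20 at that level.

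Between root and arch 4 of 20 neighbours passed at the chromosome 1 locus, 1 of 20 at the chromosome 4 locus and 5 of 20 at the chromosome 19 locus, or 20%, 5% and 25% beside 15.8% of all genes. Beside Fas, Ch25h, which makes the oxysterol 25-hydroxycholesterol, was higher in root by 1.94 ± 0.11 (adjusted p = 0.000105). Slc16a12, a transporter, was higher by 2.09 ± 0.13 (adjusted p = 0.000146) and Ifit1bl2 by 1.05 ± 0.15 (adjusted p = 0.00401). Both Ifit1bl2 means (4.14 in root, 3.09 in arch) and the arch mean of Slc16a12 (3.72) lay below the chemosensory 95th percentile of 4.32. Pank1, a pantothenate kinase of coenzyme A synthesis, was lower by -2.60 ± 0.12 (adjusted p = 4.14e-05), and Lipa, the lysosomal acid lipase, by -0.43 ± 0.09 (adjusted p = 0.0168). Lipa lost its call without 129 arch replicate 2, 129 root replicate 1 or 129 root replicate 3, with an adjusted p of up to 0.0732. The other 4 kept theirs in all 6 fits that left out 1 array.

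Around Tnfrsf4 and Tnfrsf18, C1qtnf12, which encodes the secreted protein adipolin, was lower in root by -1.22 ± 0.08 (adjusted p = 0.000196) and kept its call in all 6 fits. Around the 3 ligand genes, the small nucleolar RNA Snord47 was lower by -1.35 (adjusted p = 0.0108) and kept its call in all 6. Zbtb37 (0.43, adjusted p = 0.0250), Vamp4 (0.39, adjusted p = 0.0251) and Suco (0.34, adjusted p = 0.0431) were higher, and they passed in 2, 1 and 0 of the 6 fits. Zbtb37 passed without 129 arch replicate 1 or 129 root replicate 3, and Vamp4 without 129 arch replicate 2, and the 3 adjusted p otherwise reached 0.0871, 0.0935 and 0.138. All 3 lost their calls when each array was centred on its median, and Vamp4 and Suco also after quantile normalization, which left the differences of Suco at 0.22 and 0.30.

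Each of the 6 genes was also set against the genes outside the 6 by the correlation of log2 values over the 12 arrays. The array profile most like Fas was that of Gm16548 (Pearson r = 0.94), followed by Ing2 (0.90) and 4930511M06Rik (0.90). Tnfrsf4 was most like Ube3a (0.95), Filip1 (0.88) and Csnk1g3 (0.88), and Tnfrsf18 most like Cbl (0.90), Cfap74 (0.88) and 9330136K24Rik (0.86). With group means removed, the leading r was 0.88 for Fas with Gm16548, 0.89 for Tnfrsf4 with Ube3a and 0.90 for Tnfrsf18 with Cbl. The likeness thus held between replicates of a group as well, and its share from group means was not measured. Among the ligands, Tnfsf4 was most like 9830132P13Rik (0.91), Itln1 (0.86) and Lrrc28 (0.84), Tnfsf18 most like Gm15910 (0.90), Gm16894 (0.88) and Adam4 (0.86), and Fasl most like 4930544D05Rik (0.84), Dctn2 (0.83) and 4930405J17Rik (0.83). The 6 genes were left out of these rankings, so the rankings cannot show whether a receptor is most like its ligand. For each gene these are the highest correlations among all measured genes outside the 6, over arrays normalized together, and they describe these arrays only.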

How the data were processed

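RNA (250 ng per array) was hybridised to 12 Affymetrix Mouse Gene 2.1 ST arrays. The deposited log2 values were normalized by the authors, whose processing notes name Affymetrix Expression Console; how probes were summarised, and on which genome build, was not given in the sources used here, and the log base was inferred from the range of 0.668 to 13.6. Array medians lay between 4.68 and 4.82. Of 41345 clusters, 23521 carried 1 gene symbol in the platform annotation, 1820 several and 16004 none; per gene the cluster with the highest mean was kept, giving 22180 genes, and no filter on low values was applied. Arrays give no counts, so their number limits the precision.

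Groups came from the sample labels. The arches were tested in one limma fit (9 arrays; limma 3.58.1, R 4.3.3), and root against arch in a fit of the 6 arrays of 129. Labels name separate pools, and p-values measure the spread between pools. The fits were tested on simulated data before use. The 6 genes and all lists were chosen with earlier results of these data known. Named besides the 6 were up to 4 called genes per pathway list and comparison by size (others called are named for completeness), called neighbours among 10 measured genes on each side, and the 3 genes most correlated with each. Of the 22180 genes 21994 were found in the RefSeq table. Alternatives were a filter on dim genes, other scalings, priors and samples, the replicate block, leaving out arrays, the mean of a gene's clusters, and the methods' Tukey-Kramer test; every cluster as its own feature was added after seeing the data.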

Additional observations from a re-analysis of the deposited data

How the results depend on the processing

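No member passed the test in the arch comparisons under any alternative, and the adjusted p ran from 0.145 to 1 over them. With the replicate number as a block, 1 of 6 members passed between root and arch in place of 0: Tnfsf18, at 0.58 with an adjusted p of 0.0220. No label pairs the samples by these numbers, and a low r cannot show that they were unpaired. Same-numbered arrays deviated together with r of 0.04 to 0.05 between 129 root and 129 arch. Over the 12 pairs of same-numbered arrays within the 4 comparisons, r was -0.09 to 0.11. Outside these comparisons, r was 0.07, 0.16 and 0.07 between DBA arch and 129 root, which share neither strain nor segment. Between B6 arch and 129 root it was 0.05, 0.08 and 0.02. Each array correlated best with its own number between 129 root and 129 arch and between DBA arch and 129 arch (r of 0.05 to 0.06), but not in the other comparisons, which is a hint from the data and not from the design. The block lowered the genes called to 186 for B6 arch against 129 arch (322 without it) and 186 for DBA arch against B6 arch (344), and it ended the calls of Tnfsf15, Bid, Lta, Tnfrsf10b, Tnfsf11, Tnfrsf21, Suco and Vamp4. Taking every cluster as its own feature ended the calls of Bid, Tnfsf15, Tnfrsf10b, Ltb, Tnfsf11, Tnfrsf21, Suco, Vamp4, Zbtb37 and Lipa.

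Signs turned only for differences near 0, and the cause was not tested. Fasl between DBA arch and B6 arch was -0.00737 after quantile normalization, -0.018 after centring on the median and -0.18 to 0.16 when 1 array was left out. Tnfrsf4 between root and arch was -0.016 after centring and -0.020 to 0.27 when 1 array was left out. With 1 array left out, DBA arch minus 129 arch ranged from -0.23 to 0.23 for Tnfsf4 and from -0.078 to 0.30 for Tnfsf18. In such fits DBA arch minus B6 arch ranged from -0.094 to 0.13 for Fas. It was 0.18 without both DBA arch replicate 2 and B6 arch replicate 1. With 1 array left out, B6 arch minus 129 arch ranged from -0.19 to 0.10 for Tnfrsf4, and root minus arch from -0.35 to 0.053 for Tnfrsf18. The values that turned were 0.23 and 0.15 (Tnfsf4), -0.078 and -0.021 (Tnfsf18), -0.094 (Fas), -0.18, -0.066 and -0.047 (Fasl), 0.097 and -0.020 (Tnfrsf4) and 0.018 and 0.053 (Tnfrsf18).

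Counts over all genes, in the order DBA arch against 129 arch, B6 arch against 129 arch, DBA arch against B6 arch and root against arch, were 320, 322, 344 and 3508. They were 568, 595, 671 and 2212 with all 12 arrays in one fit. The methods' Tukey-Kramer test over the arches gave 1547, 1514 and 1659 unadjusted and 73, 57 and 81 after Benjamini-Hochberg adjustment, with 0 members by either. With 1 array left out, the counts ran from 144 to 510, 116 to 282, 159 to 394 and 2273 to 2878. The signal of the 3 ligands, close to that of the chemosensory receptor genes, limits what these arrays can show of them.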
